A study of Medicago truncatula with 6 samples.

Results

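The *M. truncatula* genes described here are 6 genes annotated to acyl lipid metabolism or to the GDSL family, of 50443 genes in the deposited expression table. They were chosen by their gene ID, with their difference between the roots with and without w5 already known. Fits, intervals and test results for that difference are therefore given as description and not as evidence for it. Such a choice can also overstate its size. The members are a fatty acyl-CoA synthetase (Medtr4g011790), a 3-ketoacyl-CoA synthase-like gene (Medtr7g113405), an acyl carrier protein (Medtr8g099920), a Pmr5/Cas1p gene of the GDSL/SGNH type (Medtr4g087730) and 2 GDSL-like lipases (Medtr1g082390 and Medtr8g022790). Root RNA came from *M. truncatula* A17 plants on agar plates, either grown alone (without w5, the controls) or with their roots in contact with mycelium of *Gongronella* sp. w5, a soil fungus of the Mucoromycotina. Seeds were set in MSR medium without glucose, and w5 was inoculated on the other side of the plate, on VI medium with glucose. The paper describes the plant controls as grown alone on MSR. Each group had 3 libraries. The roots with w5 were taken 16 days after inoculation, and no sampling time is stated for the control RNA. The number of plants behind a library is not given in the sources used here.

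Plant fatty acids are built in the plastid on an acyl carrier protein, which holds the growing chain through a thioester. Acyl-CoA synthetases activate free acids with coenzyme A outside that cycle, and 3-ketoacyl-CoA synthases extend long chains in the endoplasmic reticulum for cuticle, suberin and wax. GDSL proteins form a large family of esterases and lipases named for a sequence motif around the catalytic serine, and plants use them on cutin, wall polysaccharide esters and other substrates. In arbuscular mycorrhiza, roots hand fatty acids to the fungus.

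The labels of 2 members, Medtr7g113405 and Medtr4g087730, sit poorly with a lipid role. Medtr4g011790 and Medtr1g082390 also carry annotations other than to fatty acids or lipases, given below with each gene. Medtr7g113405 is described as 3-ketoacyl-CoA synthase-like, but the same annotation assigns it to chalcone synthase in KEGG and to naringenin-chalcone synthase activity in Gene Ontology. Chalcone synthase is a type III polyketide synthase, the entry enzyme of flavonoid synthesis, and, like 3-ketoacyl-CoA synthases, condenses malonyl-CoA with an acyl-CoA. Medtr4g087730 belongs to the PMR5 family, whose characterised *Arabidopsis* members acetylate wall polysaccharides and are not lipases. For this reason Medtr7g113405 and Medtr4g087730 are called here by their ID and annotation. No sequence is printed, as none was at hand for these genes.

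The libraries held between 6547753 and 7539956 counts over all genes. Levels are given as CPM, the counts per 1e+06 counts of the 16905 genes that passed edgeR's expression filter, after TMM scaling. All 6 members passed the filter in the full set of libraries. Within a group the libraries differed beyond counting noise (chi-square per gene of 9.78 to 32.0), so none was taken for a repeat deposit of another. This does not show that they came from separate plants. The root label could not be checked against root markers. Descriptions came only from the study's list of genes that differed, and none there was a Casparian strip membrane protein.

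All 6 members had groups that did not overlap, where 16.1% of the 16905 genes tested had such groups. In edgeR's quasi-likelihood test all 6 also met a pair of limits, p under 0.05 before adjustment with log2 fold change (log2FC) beyond 1 or -1, as did 4.77% of the genes tested. The members come from the study's own list of genes that differed in these libraries, so nothing is read from either count. Of the members, 5 were higher with w5 and 1 was lower. At an unadjusted p under 0.05 alone, the quasi-likelihood test held 6 of the 6, with 11.1% of all genes tested. At an adjusted p under 0.05 it held 0 of the 6, with 0.0177% of all genes tested. DESeq2 held 6 of 6, with 3.09% of its 17494 genes, edgeR's exact test held 6, with 3.13%, and limma-voom held 0, with 0.0177%. For the same reason nothing is read from these counts of members. In bulk RNA, fewer cells of a type and less RNA per cell cannot be told apart.

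**Figure D1:**
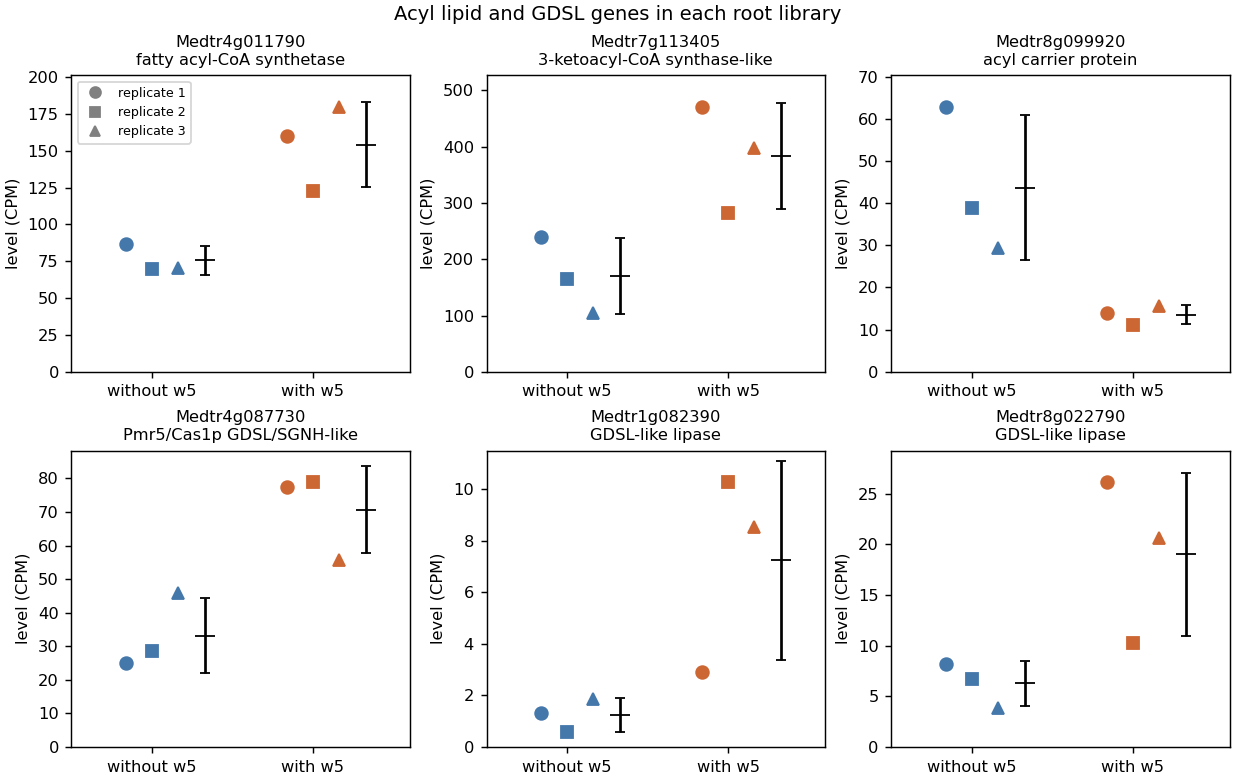
Level in CPM (vertical axis, linear from 0) of each member in the 3 root libraries without w5 (blue) and the 3 with w5 (orange), with the marker shape giving the replicate and the black bar the mean ± SD (n = 3). The groups are separate in all 6 panels, with the acyl carrier protein alone lower with w5, and with narrow gaps for Medtr7g113405 and Medtr4g087730.

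Medtr4g011790, described as a fatty acyl-CoA synthetase, was about doubled with w5. It varied least of the members among the controls, where its libraries spread by 1.25 times, but not among those with w5, where they spread by 1.46 times. It is assigned in KEGG to malonyl-CoA/methylmalonyl-CoA synthetase, an enzyme that activates short dicarboxylic acids. On chromosome 4 it covers 2975966 to 2984037 (plus strand), a span of 8072 bases for a transcript length of 2594; the build behind all positions given here is not named in the sources used. Its level was 86.9, 69.8 and 70.2 CPM in the libraries without w5 and 160 (160.055 unrounded), 123 and 180 (179.515) CPM in those with w5. The lowest library with w5 stood 1.41 times above the highest library without. The means were 75.6 ± 9.75 and 154 ± 28.9 CPM (SD over 3 libraries in each group), with a fitted log2FC of 1.03 (SE 0.18, 95% interval 0.61 to 1.44). Of the members, this value lay nearest to the limit of 1. Without control replicate 2, control replicate 3 or w5 replicate 3 it was 0.98, 0.99 and 0.90.

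Medtr7g113405 was the most abundant member in every library. On chromosome 7 it covers 46706228 to 46707139 (minus strand), and its length of 912 bases equals this span, so the gene model has no intron. Its counts were 1820, 1180 and 730 without w5 against 3075, 1924 and 2601 with w5, which are 240 (240.323), 166 and 105 CPM against 470 (470.075), 282 and 397 CPM. The gap between the groups was small, as w5 replicate 2 stood 1.18 times above control replicate 1. Controls differed among themselves by 2.28 times. The means were 170 (170.413) ± 67.7 and 383 ± 94.6 CPM (SD over 3 libraries in each group), with a fitted log2FC of 1.17 (SE 0.31, 95% interval 0.47 to 1.87). Without control replicate 3 the log2 fold change was 0.93.

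The annotation of Medtr7g113405 as a chalcone synthase was followed by setting it beside the 10 tested genes that the study's list describes as chalcone and stilbene synthases. Their summed level was 608, 274 and 304 CPM without w5 and 1086, 806 and 808 CPM with w5. In the libraries without w5 the level of Medtr7g113405 equalled 39.6%, 60.5% and 34.6% of that sum, which does not include it, and in those with w5 43.3%, 35.05% and 49.2%. The mean was 44.9% ± 13.8 and 42.5% ± 7.10 (SD, n = 3 per group), so the ratio overlapped between the groups while both of its terms were higher with w5. All 10 genes were picked by the study on these libraries. Reads shared between close copies of this family could not be told apart, since the counting program is not given in the sources used here.

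The acyl carrier protein gene Medtr8g099920 was the only member at a lower level with w5. Gene Ontology places its product in the chloroplast stroma and envelope and lists responses to light and to cytokinin. Its locus is on chromosome 8, 40284641 to 40286751, minus strand. Its counts were 475, 276 and 204 without w5 against 91, 76 and 102 with w5. In CPM these were 62.7, 38.7 and 29.4 against 13.9, 11.2 and 15.6. The lowest control stood 1.89 times above the highest library with w5, the widest gap of the 6 members. The controls ranged over 2.13 times and the libraries with w5 over 1.40 times. The means were 43.6 ± 17.2 and 13.6 ± 2.23 CPM (SD over 3 libraries in each group), with a fitted log2FC of -1.69 (SE 0.30, 95% interval -2.36 to -1.01).

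Genes of green tissue were lower in the same libraries. The list of photosystem, light-harvesting and chlorophyll a/b-binding genes had 39 members, and all 37 that were tested met the pair of limits on the lower side, where 2.73% of all genes did. The list comes from the study's own picks on these libraries. Its summed level ran from 4866 to 9099 CPM without w5 and from 2462 to 3273 CPM with w5, and 0 of the 39 genes had a count of 0 in any library. The acyl carrier protein stood at 0.807%, 0.426% and 0.605% of that sum without w5 and at 0.556%, 0.453% and 0.476% with w5. The means of this ratio were 0.612% ± 0.191 and 0.495% ± 0.0540 (SD, n = 3 per group), and the groups overlapped. Within the controls the green list was highest in replicate 2 and the acyl carrier protein in replicate 1, while both were lowest in replicate 3. With w5 both were highest in replicate 3 and lowest in replicate 2. The part of green tissue in the lower level of Medtr8g099920 was not tested.

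**Figure D2:**
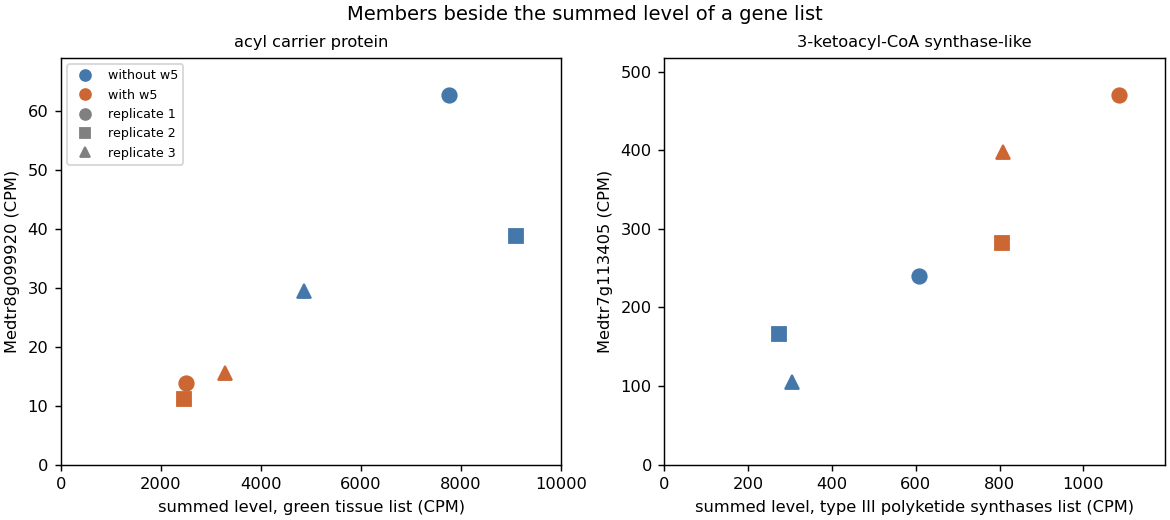
Level of Medtr8g099920 against the summed level of the 37 tested green tissue genes (left) and of Medtr7g113405 against the summed level of the 10 tested chalcone and stilbene synthase genes (right), in CPM on linear axes from 0, with 1 point per library. Libraries with w5 (orange) lie low on both axes at left and high on both axes at right, apart from those without w5 (blue).

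The 3 GDSL members were all higher with w5 and lay at very different levels. Medtr4g087730, at 34515354 to 34520486 of chromosome 4 (plus strand), had 25.1, 28.5 and 45.9 CPM without w5 and 77.5, 78.8 and 55.8 CPM with w5. Its groups were closest between control replicate 3 and w5 replicate 3, which differed by 1.22 times. The means were 33.1 ± 11.1 and 70.7 ± 13.0 CPM (SD over 3 libraries in each group), with a fitted log2FC of 1.09 (SE 0.26, 95% interval 0.51 to 1.67). Without control replicate 1 it was 0.94.

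Medtr8g022790, at 8091969 to 8094128 of chromosome 8 (minus strand), is annotated as a GDSL-like lipase with an ester hydrolase activity. Its counts were 62, 48 and 27 without w5 against 171, 70 and 135 with w5. The level was 8.19, 6.74 and 3.89 CPM in the controls and 26.1, 10.3 and 20.6 CPM with w5, so w5 replicate 2 stood 1.26 times above control replicate 1. The exact 95% Poisson intervals of these 2 libraries, 54.6 to 88.4 and 47.5 to 79.5 counts, overlapped. The means were 6.27 ± 2.18 and 19.0 ± 8.05 CPM (SD over 3 libraries in each group), with a fitted log2FC of 1.59 (SE 0.40, 95% interval 0.68 to 2.51).

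Medtr1g082390 had the largest fold difference of the members and the fewest counts. Its locus spans 36633371 to 36635459 of chromosome 1 (plus strand), and beside a GDSL lipase its annotation lists alpha-L-fucosidase activity, the release of fucose from glycans. Its counts were 10, 4 and 13 without w5 against 19, 70 and 56 with w5. Control replicate 3 and w5 replicate 1 lay close, with exact 95% Poisson intervals of 6.92 to 22.2 and 11.4 to 29.7 counts. These intervals cover counting error only. The means were 1.25 ± 0.659 and 7.25 ± 3.86 CPM (SD over 3 libraries in each group), with a fitted log2FC of 2.52 (SE 0.59, 95% interval 1.18 to 3.86). Its libraries spread by 3.34 times within the controls and by 3.54 times with w5, more than in any other member.

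**Figure D3:**
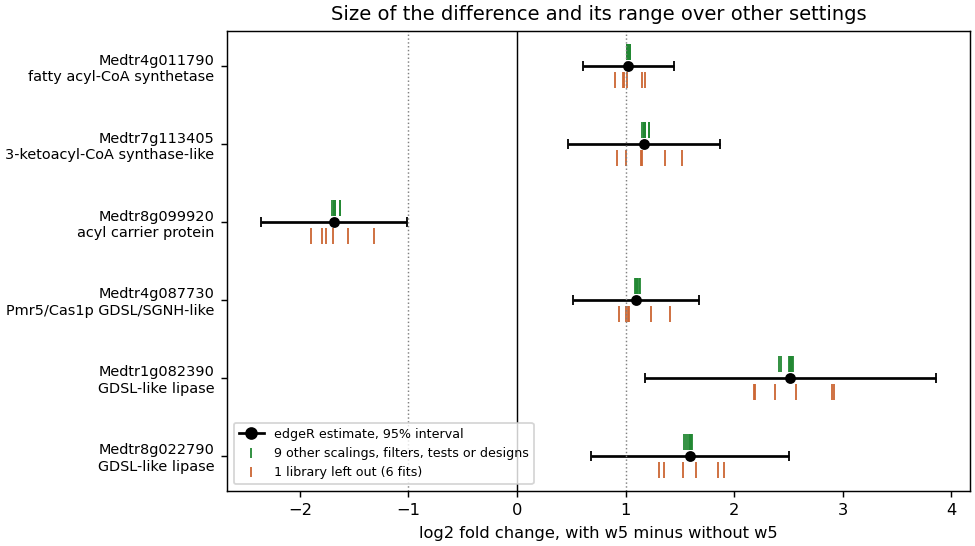
Log2 fold change of each member, with w5 minus without w5 (horizontal axis), as the edgeR estimate with its 95% interval (black), under 9 other scalings, filters, tests or designs (green) and with 1 library left out (orange). The dotted lines mark 1 and -1. The values for Medtr4g011790 lie between 0.90 and 1.18 and those for Medtr1g082390 between 2.18 and 2.92.

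Per length, the members lay at very different levels. In the authors' FPKM, which divide the counts by gene length and library total, Medtr7g113405 had 187 ± 75.1 without w5 and 417 ± 103 with w5 (SD, n = 3 per group). Its level was between the 95.5th and the 99.5th percentile of the tested genes in the 6 libraries. The libraries without w5 of the next 3 genes overlapped, with 38.9 ± 15.5 FPKM for Medtr8g099920, 30.3 ± 9.94 for Medtr4g087730 and 29.2 ± 3.86 for Medtr4g011790 (SD, n = 3). With w5 the acyl carrier protein had 11.97 ± 1.88 FPKM, below Medtr4g087730 with 64.2 ± 12.3 and Medtr4g011790 with 58.9 ± 10.6, and close to Medtr8g022790 with 16.0 ± 6.78 (SD, n = 3). Medtr8g022790 had 5.31 ± 1.88 FPKM without w5. Medtr1g082390 was last in both groups, with 0.900 ± 0.469 and 5.17 ± 2.75 FPKM (SD, n = 3), between the 1.82nd and the 41.1st percentile.

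The sum of the 3 GDSL members in FPKM came mostly from Medtr4g087730, which held between 74.4% and 90.0% of it without w5 and between 68.3% and 81.7% with w5. Medtr1g082390 held between 1.26% and 3.09% in the controls, and 2.20%, 8.40% and 8.27% in w5 replicates 1, 2 and 3. The share of Medtr8g022790 was 7.07% to 22.5% without w5 and 9.86% to 23.4% with w5, so the groups overlapped in part.

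The members did not share 1 order of libraries. Control replicate 1 was the highest control for 4 of them (Medtr4g011790, Medtr7g113405, Medtr8g099920 and Medtr8g022790), and w5 replicate 2 was the lowest library with w5 for these same 4. The other 2, Medtr4g087730 and Medtr1g082390, had their highest control in replicate 3 and their highest library with w5 in replicate 2. Medtr8g099920 belonged to the first set although its difference between the groups ran the other way. The biological coefficient of variation fitted by edgeR was 0.182 for Medtr4g011790 and 0.455 for Medtr1g082390, with 0.262 common to all genes.

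Loci next to the members mostly did not pass the pair of limits. The 4 loci on either side of each member in the numbering of the IDs, 48 in all, were taken after the values were seen. The numbering followed the coordinates of the study's list in 97.3% of 769 consecutive pairs. Of the 48 loci, 17 had no count in any library and 24 were tested, of which 2 (8.33%) met the pair of limits, with 4.77% over all genes. The median absolute log2 fold change of the 24 was 0.23. Both that passed ran in the direction opposite to the member beside them. Medtr1g082420, a thylakoid lumen protein near Medtr1g082390, had 268, 190 and 155 counts without w5 and 47, 37 and 72 with w5, with a fitted log2FC of -1.84 (SE 0.31). Medtr8g099930, a serine carboxypeptidase-like gene near the acyl carrier protein, had log2FC = 1.13 (SE 0.46), a call that was lost in 4 of 15 alternatives. Beside Medtr7g113405, Medtr4g087730, Medtr8g022790 and Medtr4g011790, 0 of the 16 tested loci passed.

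The other lipid-related genes of the study's list went both ways. The lists held 28 genes outside the 6 members, the chalcone and stilbene synthases included. Of the 25 tested, 16 were higher and 8 were lower at the pair of limits, with 2.03% of all genes higher and 2.73% lower, and 1 did not pass. The chalcone and stilbene synthases made up 10 of the 16, which leaves 6 higher and 8 lower. The median log2FC of the 25 was 1.20, and that of all genes tested was -0.01. Since the study drew every one of these genes from the same libraries, their directions are no independent evidence.

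The closest to the members in kind were both higher. Medtr5g026740, described as an acyl-CoA-binding domain protein, had 117, 139 and 66 counts without w5 and 262, 186 and 263 with w5. Its log2FC was 1.27 (SE 0.29, edgeR adjusted p = 0.113). The remaining GDSL-like lipase of the list, Medtr7g068550, was named after its values were seen. It had 25, 8 and 31 counts in the controls and 48, 48 and 50 with w5, with a fitted log2FC of 1.30 (SE 0.46, edgeR adjusted p = 0.302), and 0.92 without control replicate 2.

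Of the 6 other lipases, 2 were higher, 3 were lower and 1 did not pass. The lower ones were a phosphoinositide-specific phospholipase C (Medtr5g082580), which cleaves a signalling lipid of the plasma membrane, a lecithin:cholesterol acyltransferase family gene (Medtr3g103300) and a patatin-like phospholipase (Medtr5g017670). Medtr5g082580 had 85, 61 and 114 counts without w5 and 33, 31 and 19 with w5, with a fitted log2FC of -1.53 (SE 0.35, edgeR adjusted p = 0.116). Medtr3g103300 and Medtr5g017670 had -1.01 and -1.06, near the limit, and their calls were lost in 6 and 4 of 15 alternatives.

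Of the 7 tested genes of lipid transfer and binding, 5 were lower and 2 were higher. The 3 with the lowest p were all lower, the plastid lipid-associated proteins Medtr1g116320 and Medtr8g092680 and the polyketide cyclase and lipid transporter gene Medtr8g012550. Plastid lipid-associated proteins sit on the lipid bodies of chloroplasts and chromoplasts. Medtr1g116320 had 254, 181 and 117 counts without w5 and 42, 53 and 48 with w5, with a fitted log2FC of -1.81 (SE 0.29, edgeR adjusted p = 0.0721). Medtr8g092680 and Medtr8g012550 had -1.75 and -2.21 (edgeR adjusted p = 0.0787 and 0.0721). The 2 higher genes are both annotated as lipid transfer proteins. The plastid lipid-associated genes were lower in the libraries in which the green tissue list was lower, and the part of green tissue was not tested. The copine gene Medtr1g048160, which did not pass the filter, had 0, 0 and 0 counts without w5 and 19, 59 and 6 with w5.

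**Figure D4:**
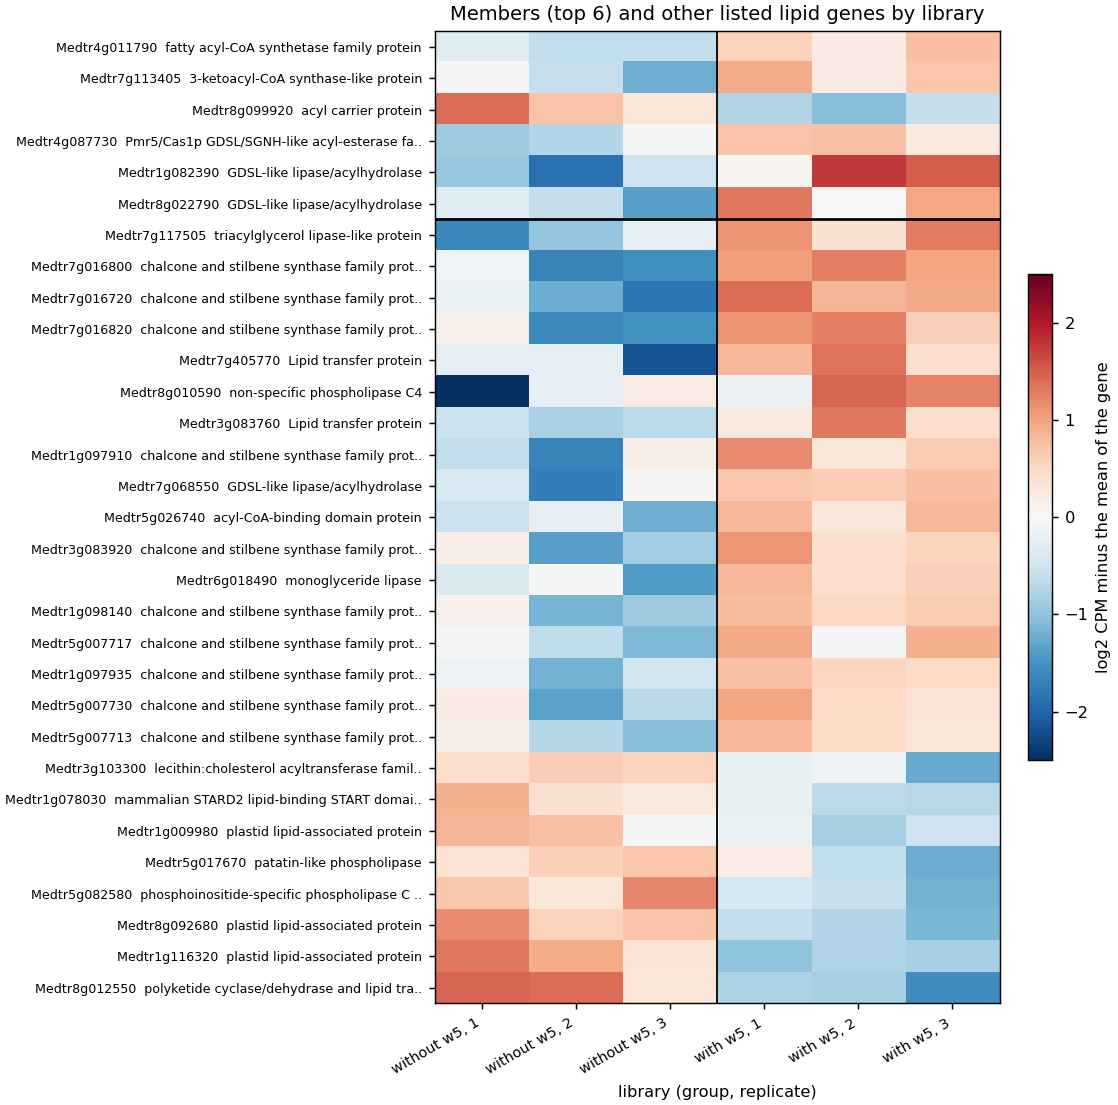
Log2 CPM minus the mean of each gene (colour) in the 6 libraries (columns, without w5 left of the line) for the 6 members (top) and the 25 other tested genes of the lipid and polyketide synthase lists, ordered by log2 fold change. The acyl carrier protein is above its mean in the 3 libraries without w5, and of the other members Medtr8g022790 alone has a library with w5 (replicate 2, -0.01) below its mean.

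Many genes followed the profile of a member over the 6 libraries. The number of tested genes with a Pearson's r over 0.95 with a member in log2 CPM ran from 32 for Medtr1g082390 to 177 for Medtr8g099920. Of these, 6 of 32 met the pair of limits for Medtr1g082390 and 89 of 177 for Medtr8g099920, with 4.77% over all genes tested. The counts were 28 of 65 for Medtr4g011790, 28 of 79 for Medtr7g113405, 13 of 36 for Medtr4g087730 and 23 of 65 for Medtr8g022790. Genes that follow a member known to differ between the groups tend to differ too, so nothing is read from these counts. A high r did not require a large difference, as Medtr5g005100 (r = 0.997 with Medtr1g082390) had a log2FC of 0.11 and Medtr1g013050 (r = 0.994 with Medtr7g113405) one of 0.22. These are descriptions over 6 libraries that share the same groups and depths. Among the 3 genes most like Medtr4g011790, the annotated one was Medtr5g090830 (r = 0.998), an HXXXD-type acyl-transferase, a family that moves acyl groups from coenzyme A to acceptors. It had 11, 6 and 6 counts without w5 and 34, 23 and 40 with w5. The others were Medtr2g030480 and Medtr3g005410 (r = 0.998 and 0.997), which are not annotated in the sources used here. Descriptions came only from the study's list of 790 genes, so a gene outside that list has none here.

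The genes most like Medtr7g113405 were Medtr1g013050, Medtr7g117540 and Medtr2g035850 (r = 0.994, 0.994 and 0.992), the second a RING-H2 subunit of the anaphase-promoting complex and the last a VQ motif protein. For the acyl carrier protein they were Medtr4g007190, Medtr2g066110 and Medtr7g084800 (r = 0.996, 0.995 and 0.994). Medtr7g084800, a glyceraldehyde-3-phosphate dehydrogenase, had 8484, 5348 and 3966 counts without w5 and 1608, 1576 and 1751 with w5. Medtr8g022790 was followed most closely by Medtr5g055480, a core-2/I-branching enzyme, by Medtr7g092600, a cytochrome P450, and by Medtr0043s0080 (r = 0.992, 0.991 and 0.987). The genes most like Medtr4g087730 (Medtr3g061720, Medtr1g015860 and Medtr0312s0020) and Medtr1g082390 (Medtr5g005100, Medtr5g043210 and Medtr1g031590) lie outside the study's list and so have no description here.

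**Figure D5:**
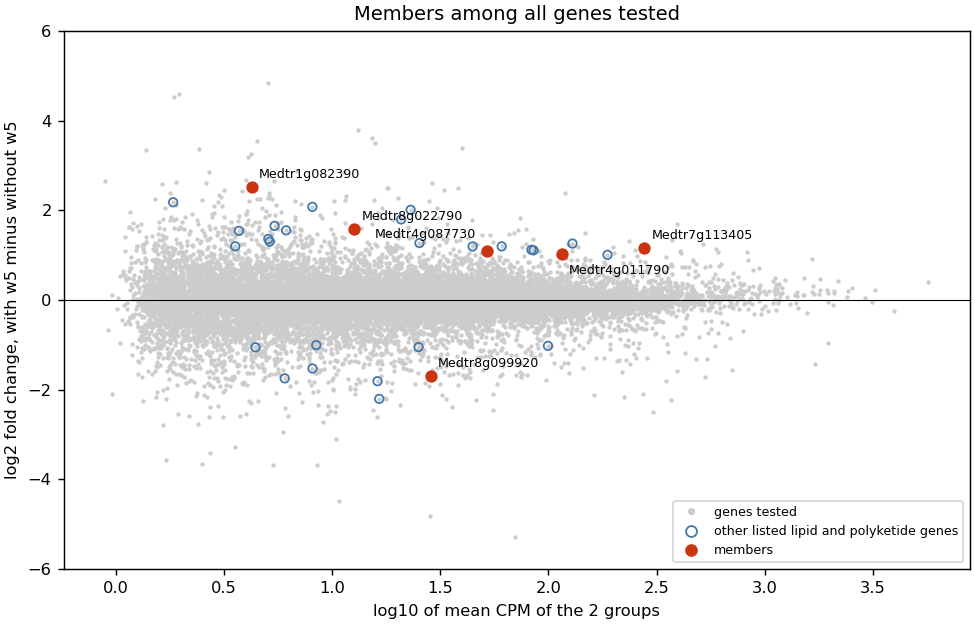
Log2 fold change, with w5 minus without w5 (vertical axis), against the log10 of the mean CPM of both groups (horizontal axis) for the 16905 genes tested (grey, 1 outside the range), with the members in red and the other listed lipid and polyketide genes as open circles. Medtr1g082390 lies highest of the members at a low level and Medtr7g113405 farthest to the right.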

How the data were processed

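Gene-level read counts were deposited unnormalized, as whole numbers per library. The deposited FPKM equal those counts divided by gene length and library total, which held for all 131099 values above 0. The RNA kit kept strand, but whether the counting used it, the counting program and the annotation version are not stated in what was used here. Processing notes from the submitters list Bowtie 0.12.2 and a mouse build, mm8.

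Genes were filtered with filterByExpr (16905 of 50443 kept), scaled by TMM (factors 0.984 to 1.01) and tested with edgeR 4.0.16 in R 4.3.3 by the robust quasi-likelihood test, with condition as the only term and Benjamini-Hochberg adjustment over all genes tested. The study calls the libraries biological replicates without saying which plants or plates they came from. The p-values weigh the difference between the groups against the spread between these libraries, which may not be that between separate plants. Alternatives used DESeq2 1.42.0, limma 3.58.1 (voom), the exact test of edgeR, scaling by RLE, by the upper quartile or not at all, no filter, at least 1 CPM in 3 libraries, a block on replicate number, and leaving out each library. The quasi-likelihood procedure was also run on counts simulated with the dispersion fitted here. That run cannot show which of the tests is right for these libraries. Correlations used log2 CPM with a prior count of 2.

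The members and lists were chosen with earlier results of these data known. Lists came from descriptions in the study's list of 790 genes, of which 755 matched the RefSeq table by gene ID, the 6 members among them. That table gave no products. Named genes are the members, the 3 genes most correlated with each, and in each list up to 3 called genes with the lowest p in the main direction. A planned count of relatives by protein similarity was not run, as no protein sequences were at hand. The members' coordinates are those of the study's list.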

Additional observations from a re-analysis of the deposited data

How the results depend on the processing

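The direction of all 6 members held in 15 of 15 alternatives, and each log2 fold change moved by less than the spread between replicates. Since the groups of no member overlapped, leaving out a library could not reverse a direction. With scaling factors of 0.984 to 1.01, another scaling could hardly do so, and nothing is read from the kept directions. The acyl carrier protein had between -1.90 and -1.32, lowest in size without control replicate 1. The number of members within the pair of limits (p under 0.05 before adjustment, log2FC beyond 1 or -1) was 6 of 6 except without a library, where it was between 4 and 6. Over all genes 806 passed that pair, against 800 to 1170 in the other settings with all libraries. With a library left out, 817 to 1067 passed. The number of members at an adjusted p under 0.05 depended on the test. It was 2 with no filter, 6 with DESeq2, 6 with edgeR's exact test, and between 0 and 2 with a library left out, the 2 without control replicate 3. Over all genes it was 3, and 195 with no filter, 540 with DESeq2, 529 with the exact test, and between 1 and 103 with a library left out, the 103 without control replicate 3. Of the 28 other listed lipid genes, 24 passed the unadjusted limits and 0 passed at an adjusted p under 0.05, against 6 with no filter, 17 with DESeq2, 16 with the exact test and between 0 and 2 with a library left out. The cause was not tested. Without control replicate 2, 17 of the other listed lipid genes passed the unadjusted limits. Over all genes 955 passed them in that fit and 806 in the main fit.

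With the replicate number as a block, 1 member, 6 other lipid genes and 176 of all genes passed at an adjusted p under 0.05. Same-numbered libraries had deviations from their group means that correlated at 0.23, -0.0543 and -0.0276, and libraries of different numbers at -0.225 to 0.236. The numbers were therefore not taken to pair the libraries. For the other named genes, 438 values kept their side of the unadjusted limits, 24 lost it and 3 gained it. The alternatives for relatives by protein similarity were not run. Medtr1g082390, with 172 counts in all, is limited by depth.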
